A study of Mus musculus with 3 samples.

Results

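The 5 imprinted genes studied here were counted in place in sections of wild-type mouse embryos: H19, Dlk1, Cdkn1c, Gnas and Asb4. They were taken by name, and all 5 were among the 296 genes counted by MERFISH, an imaging method in which each RNA molecule in the tissue is read as a barcode of fluorescent signals. The later stage was E15.5, with 1 sagittal section of 1 whole embryo. The earlier was E9.5, with 1 sagittal section from each of 2 embryos, called E9.5 section 1 and section 2. All 3 embryos were wild type and received no treatment named in the labels, and strain and sex were not used here. A cell entered when its gene counts reached 10, giving 195915 cells with 21227345 counts at E15.5, 830 cells with 68572 counts in E9.5 section 1 and 6334 cells with 1034730 counts in E9.5 section 2. E9.5 section 1 thus held far fewer cells than section 2, and its levels carry the widest counting error. The noise level came from 19 Blank codes, barcodes given to no gene, of which the highest held 0.0449% of the gene counts at E15.5, 0.0685% in E9.5 section 1 and 0.0380% in E9.5 section 2.

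Imprinted genes are expressed mainly from the copy inherited from one parent, and many of them act on growth of the fetus and placenta. H19 is a maternally expressed non-coding RNA that lies beside Igf2 and is abundant in fetal mesoderm and endoderm. Dlk1, expressed from the paternal copy, encodes a transmembrane relative of the Notch ligands. Cdkn1c, maternally expressed, encodes p57Kip2, an inhibitor of cyclin-dependent kinases. Gnas encodes the stimulatory G protein alpha subunit, which is made from both copies in most tissues, and its locus makes several other transcripts from separate, imprinted starts. Asb4 encodes an ankyrin repeat and SOCS box protein, a substrate receptor of a ubiquitin ligase. MERFISH counts do not tell the parental copies apart, so nothing below bears on allelic expression.

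In the RefSeq annotation of GRCm38.p6, H19 lies on chromosome 7 from 142575530 to 142578146 and Cdkn1c on the same chromosome from 143458339 to 143461059. Gnas lies on chromosome 2 from 174284320 to 174346744, Asb4 on chromosome 6 from 5383386 to 5433022, and Dlk1 on chromosome 12 from 109452485 to 109463336. The deposited tables carry no genome coordinates or build, and the sequences of the probes were not used here. H19, the most counted gene in every section, is also the host of a microRNA, miR-675. Its 2 mature forms are shown because they are the small RNAs cut from the most abundant transcript of the panel, with the seed (bases 2 to 8) in capitals; the panel does not measure them, and their seeds differ. Both lie on the minus strand, miR-675-5p at chr7:142577112-142577133 and miR-675-3p at chr7:142577078-142577099.
mmu-miR-675-5p: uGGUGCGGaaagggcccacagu
mmu-miR-675-3p: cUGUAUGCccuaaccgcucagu

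The RefSeq table of promoters (250 bases before to 50 after a transcript start) lists 4 starts of Gnas, 2 of Asb4 and 1 of Dlk1. One of each is shown, since these genes span the range from counts in most cells to counts in few, with every CG dinucleotide in capitals. For Gnas the start lying farthest along the plus strand is given (chr2:174329756-174330055), for Dlk1 the listed start (chr12:109452573-109452872) and for Asb4 the first (chr6:5383136-5383435), all on the plus strand. The letters CG read the same on both strands. The Gnas window held 40 of them, and 3.91% of the 32851 listed promoters held as many or more. The Dlk1 window held 9, a number reached by 45.8% of promoters, and the Asb4 window held 6, reached by 56.4%. The other listed Gnas starts held 16, 27 and 28, and the other Asb4 start held 8. These are counts of letters; they say nothing of methylation, which was not measured.
Gnas promoter: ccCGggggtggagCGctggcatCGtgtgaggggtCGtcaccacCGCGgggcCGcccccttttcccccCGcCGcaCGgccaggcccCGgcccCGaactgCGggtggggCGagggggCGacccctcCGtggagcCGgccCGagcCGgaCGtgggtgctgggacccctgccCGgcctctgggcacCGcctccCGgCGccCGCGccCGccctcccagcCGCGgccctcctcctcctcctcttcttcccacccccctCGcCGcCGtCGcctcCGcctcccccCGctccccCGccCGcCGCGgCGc
Dlk1 promoter: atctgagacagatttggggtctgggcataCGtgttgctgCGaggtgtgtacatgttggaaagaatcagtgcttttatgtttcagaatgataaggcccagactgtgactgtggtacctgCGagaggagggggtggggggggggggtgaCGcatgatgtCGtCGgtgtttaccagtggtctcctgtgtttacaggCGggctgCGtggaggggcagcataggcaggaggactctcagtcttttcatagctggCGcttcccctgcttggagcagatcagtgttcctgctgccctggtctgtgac
Asb4 promoter: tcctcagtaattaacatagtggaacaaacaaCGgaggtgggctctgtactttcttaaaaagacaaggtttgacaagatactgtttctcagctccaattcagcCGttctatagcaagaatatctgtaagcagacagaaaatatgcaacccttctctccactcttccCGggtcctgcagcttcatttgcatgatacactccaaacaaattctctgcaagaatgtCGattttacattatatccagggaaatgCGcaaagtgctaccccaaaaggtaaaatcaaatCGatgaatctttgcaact

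H19, Gnas and Cdkn1c ranked 1, 2 and 3 of the 296 genes by counts at E15.5. H19 made up 14.05% of gene counts at E15.5, against 9.91% in E9.5 section 1 and 4.34% in E9.5 section 2, and ranked first in every section. The E15.5 value lay above both E9.5 values, and the 2 E9.5 embryos were far apart. Gnas made up 5.45% at E15.5, against 1.81% and 2.04% in the E9.5 sections, where its rank was 11 in both. The E9.5 embryos were close to each other for this gene. Cdkn1c made up 3.43% at E15.5, against 0.261% in E9.5 section 1 and 1.54% in E9.5 section 2, with ranks of 3, 75 and 20. Its 2 E9.5 values lay far apart. Dlk1 held 2.14% at E15.5, against 1.54% and 2.11% in the E9.5 sections, so the E15.5 section and E9.5 section 2 were nearly equal. Asb4 was the rarest, with 0.165% at E15.5, against 0.236% and 0.422% in the E9.5 sections, and was the one gene of the 5 that stood lower at E15.5 than in both E9.5 sections. It still held 3.68 times the counts of the highest Blank code at E15.5, 3.45 times in E9.5 section 1 and 11.1 times in E9.5 section 2.

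**Figure D1:**
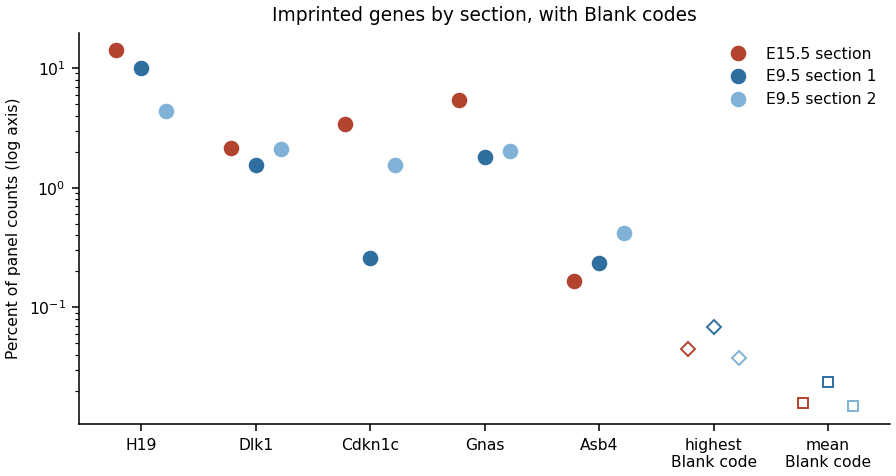
Share of panel counts (percent, log axis) of each gene in the E15.5 section (red) and in E9.5 sections 1 and 2 (dark and light blue), 1 point per section, with the highest and the mean of 19 Blank codes at the right. All 15 gene values lie above the highest Blank code, and Cdkn1c shows the widest gap between the E9.5 sections (0.261% and 1.54%).

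The genes also differed in how many cells carried them. To set cells of unequal depth side by side, each cell was thinned to 50 counts, which left out 59914 cells at E15.5, 336 in E9.5 section 1 and 1261 in E9.5 section 2. After thinning, Gnas was present in 87.9% of cells at E15.5, against 35.6% and 41.5% in the E9.5 sections. Unthinned, the shares were 84.3%, 33.5% and 52.3%. H19 was present in 77.1% of thinned cells at E15.5, against 33.6% and 43.0%, and unthinned in 74.4%, 30.5% and 52.1%. Gnas, second in counts at E15.5, thus reached more cells there than H19, first in counts. Cdkn1c was present in 56.4% of thinned cells at E15.5, against 9.72% and 33.3%, and unthinned in 57.0%, 13.98% and 48.8%. Dlk1 was present in 42.6%, against 23.1% and 37.4%, and unthinned in 44.5%, 20% and 42.8%. Asb4 was present in 6.95%, against 8.70% and 16.4%, and unthinned in 11.9%, 13.1% and 31.9%. A single Blank code was present in a mean of 1.66% of unthinned cells at E15.5, 1.88% in E9.5 section 1 and 2.32% in E9.5 section 2.

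Cdkn1c and Gnas rose at E15.5 in the test across the panel, and the other 3 genes did not pass it. Counts were summed over the kept cells of each section and tested with edgeR's quasi-likelihood test with Benjamini-Hochberg adjustment over 296 genes. The fit takes its spread from the 2 E9.5 embryos and draws that of each gene toward the other genes. It assumes that the lone E15.5 section varies like those embryos. An SE therefore need not reflect a gene's own spread, as for Cdkn1c, at 0.261% and 1.54% in the 2 E9.5 embryos. Cdkn1c was higher by 1.92 ± 0.53 on the log2 scale (SE, adjusted p = 0.00871 by edgeR), a 3.79-fold difference. Gnas was higher by 1.51 ± 0.51 (adjusted p = 0.032 by edgeR), a 2.85-fold difference. H19 was higher by 1.00 ± 0.49 with an adjusted p of 0.182 by edgeR. Dlk1 differed by 0.24 ± 0.55 (adjusted p = 0.856) and Asb4 by -0.99 ± 0.85 (adjusted p = 0.523). So 2 of 5 members were called, both higher, beside 14.9% of all genes called in either direction and 9.46% called higher. Neither call held without the E9.5 areas of low Gnas described further on. Gnas then stood at 0.99 (adjusted p = 0.429 by edgeR) and Cdkn1c at 1.78 (adjusted p = 0.0522 by edgeR). Those areas were chosen by low Gnas and left out at E9.5 only. A smaller Gnas difference was thus fixed in advance and tells nothing about its call. DESeq2 called Gnas (adjusted p = 1.61e-07) and not Cdkn1c (2.00 ± 1.66, adjusted p = 0.398). Markers of neurons moved the same way, 3 of 5 being called higher (Stmn2, Tubb2b and Scn3a), with a median log2 difference of 3.74, and their bearing on the Gnas and Cdkn1c values was not tested. Leaving out E9.5 section 1 gave Cdkn1c a log2 difference of 1.35, and leaving out section 2 gave 3.75, with no test. A sum over a section cannot tell fewer cells of a type apart from less RNA per cell, and imaging run and the tissue covered cannot be told apart from stage.

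Few other genes of the same pathways were in the panel. Of 6 imprinted genes, 3 rose at E15.5 and none fell, beside 9.46% of all genes called higher, with a median log2 difference of 1.26 against -0.15 for all genes tested. Of the 6, 5 are the genes described here, and the calls of Cdkn1c and Gnas are those lost without the low-Gnas areas. For Gnas, which chose those areas, a smaller difference was fixed in advance. The other is Dcn, encoding the proteoglycan decorin, higher by 2.68 ± 0.68 (adjusted p = 0.00491). Of 4 inhibitors of cyclin-dependent kinases and related cell-cycle exit genes, Cdkn1c alone was called; Cdkn1a, another kinase inhibitor, stood at 1.32 ± 0.81 (adjusted p = 0.334). Of 17 genes of mitosis and DNA synthesis, 2 fell and 15 were not called, with a median of -1.51, beside 5.41% of all genes called lower. Those called were Aurka, a mitotic kinase, at -2.09 ± 0.65, and Pimreg, a mitotic regulator, at -2.84 ± 0.90 (both adjusted p = 0.0264). In the insulin-like growth factor list only Igfbp3, Igfbp5 and H19 were in the panel, and 0 of 3 passed edgeR's test. Of 6 Notch genes, Notch1 alone was called, at -2.29 ± 0.62 (adjusted p = 0.00754), while the Dlk1 value is given above. Of 2 hypoxia genes, the glucose transporter gene Slc2a1 fell by 3.54 ± 1.12 on the log2 scale (adjusted p = 0.0264).

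Within the E15.5 section, H19 was near absent from a territory with neural marker counts, where Dlk1 and Cdkn1c were lower than elsewhere and Gnas was not. Shares were read in 860 squares of 200 position units, a length for which the file headers give no unit, each with at least 20 kept cells. H19 ranged from 0% to 52.0% of counts with a median of 14.5%. Its 10th percentile was 0.128% and its 90th was 24.7%. Dlk1 ran from 0.0671% to 4.37% between the 10th and 90th percentiles, Cdkn1c from 0.362% to 6.07% and Asb4 from 0.0108% to 0.298%. Gnas varied least, from 2.56% to 6.86%, and every square held more Gnas than its highest Blank code. For Asb4 52.3% of squares did.

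In 164 squares, 19.1% of them, H19 made up under 1% of counts, and 39 squares lay between 1% and 5%. Over these 164 squares H19 itself, which chose them, was at 0.149% of counts, against 16.9% elsewhere. Dlk1 was at 0.497% in them against 2.48% elsewhere, and Cdkn1c at 0.607% against 4.00%. Gnas was at 6.67% against 5.21%, and Asb4 was nearly level at 0.154% against 0.168%. The 5 neuronal markers (Stmn2, Tubb2b, Scn3a, Reln and Meis2) together made up 23.5% of counts in the squares of low H19 and 2.85% elsewhere. The 4 mesenchyme markers (Dcn, Col1a2, Prrx1 and Prrx2) made up 0.0863% and 2.50%. Kept cells held a mean of 82.8 counts in those squares and 116 elsewhere, and Blank codes together 0.267% and 0.310% of gene counts. The squares of one section are not replicates, so these values are a description of this section.

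**Figure D2:**
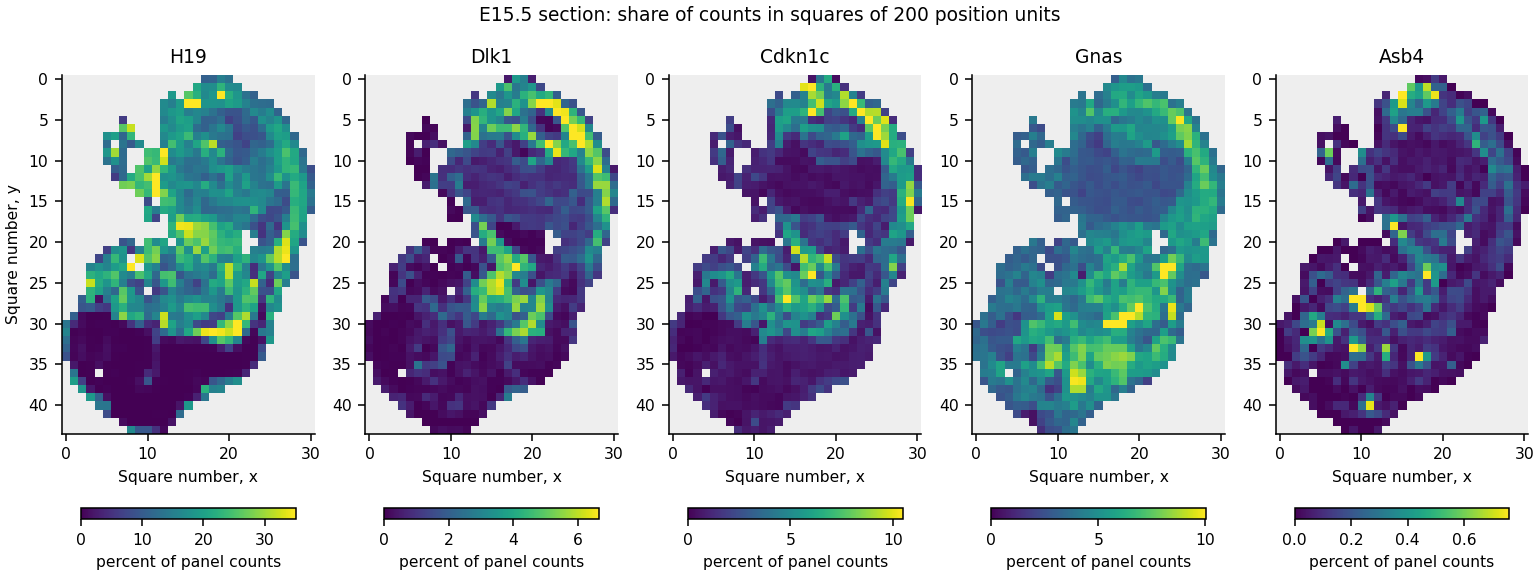
Share of panel counts (percent, colour) of each gene in squares of 200 position units of the E15.5 section, with square numbers on both axes; the colour scale ends at each gene's 99th percentile and grey marks squares with under 20 kept cells. H19 is low, and Dlk1 and Cdkn1c are lower than elsewhere, across the lower territory where Gnas stays high, and Asb4 is high in scattered squares.

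The 5 genes did not share one pattern over the squares. At E15.5 the Pearson correlation of log2(share per 10000 + 1) over the 860 squares was 0.63 between Dlk1 and Cdkn1c, 0.58 between H19 and Cdkn1c and 0.49 between H19 and Dlk1. Gnas correlated with H19 at -0.12, and with the other 3 between 0.30 and 0.39. Asb4 was nearest to Dlk1, at 0.43. In the 41 squares of E9.5 section 2 the pair of Dlk1 and Asb4 stood at 0.66 and that of H19 and Gnas at 0.50. With squares of 100 units they stood at 0.41 and 0.66, so the order of these pairs depends on the size of the squares. Squares share a section and their shares add up to a whole, so these correlations are descriptions and carry no test.

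By the same measure each member was set against all other panel genes, and the 3 most like it are named. For H19 they were Anxa6, an annexin (0.80), Fn1, encoding fibronectin (0.80) and Gpc3, a glypican (0.80) at E15.5, against Anxa6 (0.78), the cardiac transcription factor gene Tbx20 (0.74) and Ccng1 (0.73) in E9.5 section 2. For Cdkn1c they were Itm2a (0.82), Fibin (0.75) and Anxa6 (0.72) at E15.5, against Prrx2, a limb and face mesenchyme factor (0.83), Pim3 (0.80) and Tmem108 (0.77). For Dlk1 they were Cdkn1c (0.63), Itm2a (0.59) and the smooth muscle actin gene Acta2 (0.54), against the fibrillar collagen gene Col5a2 (0.72), Asb4 (0.66) and Itm2a (0.64). Asb4 was nearest to Dlk1 (0.43), Itm2a (0.39) and Cdkn1c (0.37), against Dlk1 (0.66), the chemokine gene Cxcl12 (0.51) and Serpinf1 (0.50). For Gnas they were Sparcl1 (0.51), Chst1 (0.47) and Spock2 (0.45) at E15.5, against Gnai2, another G protein alpha subunit gene (0.91), Nr1h2 (0.89) and Cenpf (0.87) in E9.5 section 2. The 43 squares with the highest Gnas share at E15.5, at 9.32% against 5.01% in the rest, held 16.5% neuronal marker counts against 5.16%.

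Cells were also grouped by clustering on the panel without these 5 genes, which gave 28 clusters at E15.5 and 24 at E9.5. A cluster was named where at least 3 markers of 1 class were raised and no other class met the same rule. No other class could have as many markers among the 10 leading genes, unless all classes had 0 there. The latter held for E9.5 cluster 18, named endothelial-like with 6 of 7 markers raised. The heart list was not used for names, and the other clusters stay numbered. At E15.5 H19 reached 31.5% of counts in cluster 7 (leading genes Cytl1, Mgp and Cthrc1, genes of cartilage and connective tissue matrix), 25.8% in cluster 14 (Gata4, Tbx20 and Gja5) and 23.8% in cluster 6 (Cfi, Oit3 and BC028528). It was at 0.283% in cluster 11 and 0.221% in cluster 3, both neuronal-like, and at 0.182% in cluster 12 (Fabp7, Slc1a3 and Mfsd2a, the first 2 being radial glia markers). The range from lowest to highest was 173-fold.

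Cdkn1c and Dlk1 were both highest in cluster 4 of the E15.5 section, led by Pdlim3, Gja5 and Acta2. Cdkn1c held 9.60% of counts there, 6.15% in cluster 7 and 4.35% in cluster 1 (Htra1, Dkk2 and Fibin). Its lowest values were 0.346% in cluster 5 (Scgb3a1, Cfl1 and Tfec), 0.410% in the neuronal-like cluster 28 and 0.479% in cluster 24 (Scn7a, Rgs4 and Egfl8). Dlk1 held 5.04% in cluster 4, 4.01% in cluster 1 and 2.90% in cluster 7. It was lowest in cluster 27 (0.0455%, led by Slco1c1, Car14 and Tmem108), cluster 26 (0.109%) and cluster 20 (0.165%). The same 3 clusters, 1, 4 and 7, thus headed both genes, and for Dlk1 the mural-like cluster 15 (2.87%) followed cluster 7 closely.

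Gnas was highest at E15.5 in cluster 19 (12.8%), led by Hand2, Rgs4 and Ccnd1. It came next in the neuronal-like cluster 28 (11.1%), led by Foxp1, Hoxa5 and Nts, and in cluster 27 (8.14%). Its lowest values were 2.55% in cluster 2 (Car2, Rgcc and Stab2), 3.45% in cluster 21 (Cdc20, Gadd45g and Cenpf) and 3.50% in cluster 20. Its range of 5.04-fold was the smallest of the 5 genes. Asb4 was highest in the mesenchyme-like cluster 9 (0.333%), cluster 7 (0.287%) and cluster 4 (0.2499%), and lowest in cluster 24 (0.0244%), cluster 19 (0.0210%) and cluster 28 (0.0108%). Asb4 lay above the highest Blank code of the whole section in 22 of 28 clusters, and the other 4 genes did in all 28.

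In E9.5 section 2 the genes were spread over other clusters. H19 was highest in cluster 11 (20.7%), led by Car2, a carbonic anhydrase gene, with Slc38a5 and Reln. It came next in cluster 8 (16.8%, Dkk2, Epas1 and Col1a2) and the endothelial-like cluster 23 (11.8%). Cells of cluster 11 were shallow, with a median of 23 counts. Cdkn1c was highest in cluster 23 (4.23%), cluster 5 (3.94%, Acta2, Pdlim3 and Tbx20) and cluster 20 (3.74%, Gata5, Pcdh17 and Tbx20). Dlk1 reached 5.77% in cluster 13 (Gata4, Gata5 and Igfbp3), 5.48% in cluster 8 and 5.37% in cluster 4 (Foxd1, Stra6 and Nrp2). Asb4 was also highest in cluster 13 (1.73%), ahead of cluster 1 (0.720%, Tcf15, Heyl and Zic1) and cluster 20 (0.604%). Gnas was highest in cluster 24 (6.46%, 32 cells, Epas1, Pdpn and Sat1), cluster 11 (5.46%) and cluster 7 (4.39%).

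The bottom of the E9.5 range was shared. Cluster 10 (Higd1b, Lyve1 and Gkn3) held no count of H19, Dlk1, Cdkn1c or Gnas in 211 cells of E9.5 section 2, and no count of any of the 5 in 56 cells of section 1. Cluster 2 held 0.0478% H19, 0.0191% Dlk1, 0.141% Cdkn1c and 0.0860% Gnas in section 2. Cluster 6 (Prrx1, Kcne3 and B230312C02Rik) held 0.0208% H19 and 0.0178% Gnas but 0.589% Asb4. Of the cells of cluster 10, 99.5% lay in the low-Gnas areas of section 2, as did 90.3% of cluster 2 and 84.7% of cluster 6. Low Gnas chose these areas, so clusters with little Gnas tend to fall in them by construction. Cells of cluster 10 were also shallow, with a median of 40 counts. In E9.5 section 1, H19 (28.4%) and Dlk1 (4.43%) were highest in cluster 8, among the first 2 for both genes in section 2 as well.

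**Figure D3:**
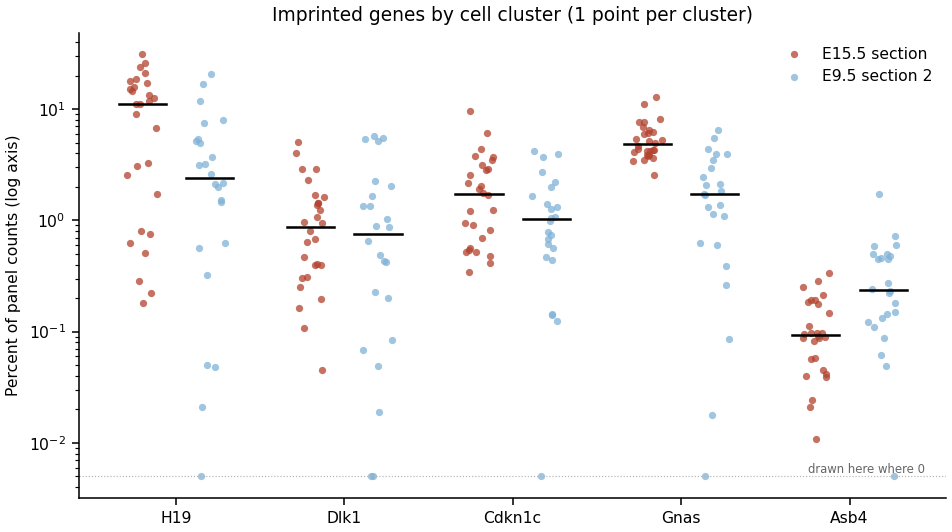
Share of panel counts (percent, log axis) of each gene in each cell cluster with at least 20 cells of the E15.5 section (red, 28 clusters) and of E9.5 section 2 (blue, 24 clusters); bars are medians and clusters with 0 counts are drawn at the dotted line. H19 spans the widest range at E15.5 (0.182% to 31.5%) and Gnas the narrowest (2.55% to 12.8%).

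The design also allowed cell classes to be set against the other cells of the same sections. No class named from clusters had 20 cells in each section, so cells were taken by marker counts (at least 3 counts over at least 2 markers) for mural, mesenchyme and neuronal cells. None of the 5 genes was called by edgeR in any of these 3 classes, where 5.74%, 1.01% and 1.69% of genes were called. At an unadjusted p below 0.05 edgeR gave 0, 2 and 1 of the 5 genes, beside 46, 32 and 39 of all 296, and DESeq2 called 0, 1 and 1 after adjustment, beside 13, 21 and 33 of all 296.

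In cells with mesenchyme markers Dlk1 made up 3.03% of counts at E15.5 against 1.76% in other cells, 4.54% against 0.872% in E9.5 section 1 and 3.56% against 1.74% in E9.5 section 2. It was higher in 3 of 3 sections, by 1.81 ± 0.63 on the log2 scale (adjusted p = 0.31 by edgeR, 0.01 by DESeq2). H19 was at 15.2% against 13.6%, 26.1% against 6.31% and 7.53% against 3.52% in the same order, higher in 3 of 3 sections, with a difference of 1.52 ± 0.67 (adjusted p = 0.421). Without E9.5 section 1 these differences were 1.198 for Dlk1 and 0.92 for H19, and without the E15.5 section 2.24 and 2.10, none called by edgeR. In cells with neuronal markers Gnas was at 6.62% against 4.85% at E15.5, 3.86% against 1.54% in E9.5 section 1 and 3.25% against 1.69% in section 2. It was higher in 3 of 3 sections, by 1.16 ± 0.58 (adjusted p = 0.363 by edgeR, 0.0304 by DESeq2). These cells were deeper than the rest, with medians of 155 against 69 counts for mesenchyme and 103 against 77 for neuronal markers at E15.5. In E9.5 section 1 none of the 53 mesenchyme or 35 neuronal cells lay in the low-Gnas areas, which held 43.3% of all cells. In section 2, 20.4% and 14.1% did, against 44.0% of all cells. Without these areas the differences were 1.63 for Dlk1 and 1.15 for H19 in mesenchyme and 0.66 for Gnas in neuronal cells, none called (adjusted p = 0.139, 0.349 and 0.554 by edgeR).

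H19 in cells taken by neuronal markers was below the other cells at E15.5 and above them at E9.5. It was at 5.23% in these cells against 18.6% in other cells at E15.5, but at 19.2% against 8.70% in E9.5 section 1 and 5.72% against 3.92% in section 2. At E9.5 the cells taken lay mostly outside the low-Gnas areas, where H19 was higher, and the markers Tubb2b and Meis2 were themselves low inside. Without these areas the H19 class difference over all sections went from 0.24 to -0.28 on the log2 scale. The interaction was not fitted without them. The interaction of class and stage was -2.45 ± 1.03 on the log2 scale, with an adjusted p of 0.0928 by edgeR and 0.00769 by DESeq2. For this interaction edgeR called 0 of 5 members beside 13.5% of all genes (1 of 5 at an unadjusted p below 0.05, beside 86 of all 296), and DESeq2 called 1, beside 12 of all 296. The gate holds other cells than the clusters do: the neuronal-like clusters 3 and 11 held 0.221% and 0.283% H19 at E15.5, and E9.5 cluster 7, unnamed and led by the radial glia marker Fabp7, held 0.187% in section 1 and 0.564% in section 2. In these clusters H19 was thus low at both stages. For mural and mesenchyme cells edgeR called no interaction of any gene (0.0%), with 23 and 5 genes at an unadjusted p below 0.05 and 2 and 7 called by DESeq2.

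No difference of these genes passed the test in mural or endothelial cells. In cells with mural markers H19 was at 12.45% against 14.3% at E15.5, 14.5% against 9.14% in E9.5 section 1 and 5.71% against 3.65% in section 2, with a difference of 0.47 ± 0.25 (adjusted p = 0.373). Endothelial-like clusters had 9084 cells at E15.5, 10 in E9.5 section 1 and 321 in section 2, so section 1 was left out. Against the other cells, 0 of 5 members were called by edgeR beside 10.5% of genes, and 0 at an unadjusted p below 0.05; DESeq2 was not run there. Dlk1 was at 1.70% against 2.17% at E15.5 and 0.639% against 2.21% in section 2, a difference of -0.80 ± 0.50 (adjusted p = 0.395). Cdkn1c was at 2.04% against 3.52% at E15.5 and 1.87% against 1.52% in section 2.

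Cells with Cdkn1c held somewhat fewer counts of mitotic genes over all cells, with a smaller median difference within clusters. Each cell was thinned to 50 counts, and the 17 genes of mitosis and DNA synthesis were read as a share of counts outside the 5 members. At E15.5 they made up 4.81% in 47260 cells with at least 2 Cdkn1c counts and 6.08% in 59290 cells with none, a ratio of 0.791. In E9.5 section 2 the values were 9.53% in 767 cells and 10.9% in 3385 cells, a ratio of 0.873. Within clusters with at least 50 cells of each kind, the ratio was below 1 in 19 of 25 clusters at E15.5, with a median of 0.956 and a range of 0.528 to 1.47. In E9.5 section 2 it was below 1 in 1 of 4 clusters, with a median of 1.04. Thinned to 100 counts, it was below 1 there in 3 of 3 clusters, with a median of 0.933. The direction within E9.5 clusters thus depends on the depth. E9.5 section 1 had too few cells for this reading, and cells are not replicates, so no test was made.

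At E9.5 Gnas and H19 were low together over large areas of both embryos. That H19 is low there too was known from earlier results of these data, so its values below are a description. A cell was counted as lying in a low-Gnas area where Gnas, summed over its 50 nearest kept cells, was under 0.25 of the section's 90th percentile. Such areas held 359 of 830 cells (43.3%) in E9.5 section 1 and 2784 of 6334 (44.0%) in section 2. The same rule took 4301 of 195915 cells (2.20%) at E15.5. Gnas chose the areas, and its level there is a description: 0.132% inside and 2.65% outside in section 1, and 0.404% and 2.95% in section 2. H19 held 19 counts inside and 6777 outside in section 1, or 0.0835% against 14.8%, 177-fold lower. The level inside is close to that of the highest Blank code (0.0685%), and with areas drawn over the 20 nearest cells the difference was 64.3-fold. Cluster 8, with 104 cells and none inside, held 5806 of the 6796 H19 counts of this section. In section 2 it held 1.09% against 6.13%, 5.64-fold lower.

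Dlk1 was also lower inside in both embryos, by unequal amounts, and the directions of Cdkn1c and Asb4 differed or were close to level. Dlk1 was at 0.215% inside against 2.20% outside in section 1, 10.2-fold lower, and at 1.66% against 2.35% in section 2. In section 1, cluster 8, with no cell inside, held 905 of the 1056 Dlk1 counts. Within clusters of section 1 the Dlk1 ratio was 4.85 in cluster 1 and 0.803 in cluster 3, and cluster 2 had no Dlk1 count outside. The median gene with at least 50 counts outside stood at 0.488 in section 1. Cdkn1c was at 0.312% against 0.236% in section 1, higher inside, and at 1.09% against 1.79% in section 2. Asb4 was at 0.378% against 0.166% in section 1, on 86 and 76 counts, and at 0.434% against 0.415% in section 2. Besides Gnas, which chose the areas, 1 of the other 4 members, H19, was at least 2-fold lower inside in both sections, a share close to the 24.0% of the 129 genes with at least 50 counts outside in each. None of the 5 was 2-fold higher in both, beside 10.1% of those genes. In the E15.5 cells taken by the same rule, H19 was at 16.54% inside against 14.02% outside, Dlk1 at 0.855% against 2.16% and Asb4 at 0.0630% against 0.167%.

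**Figure D4:**
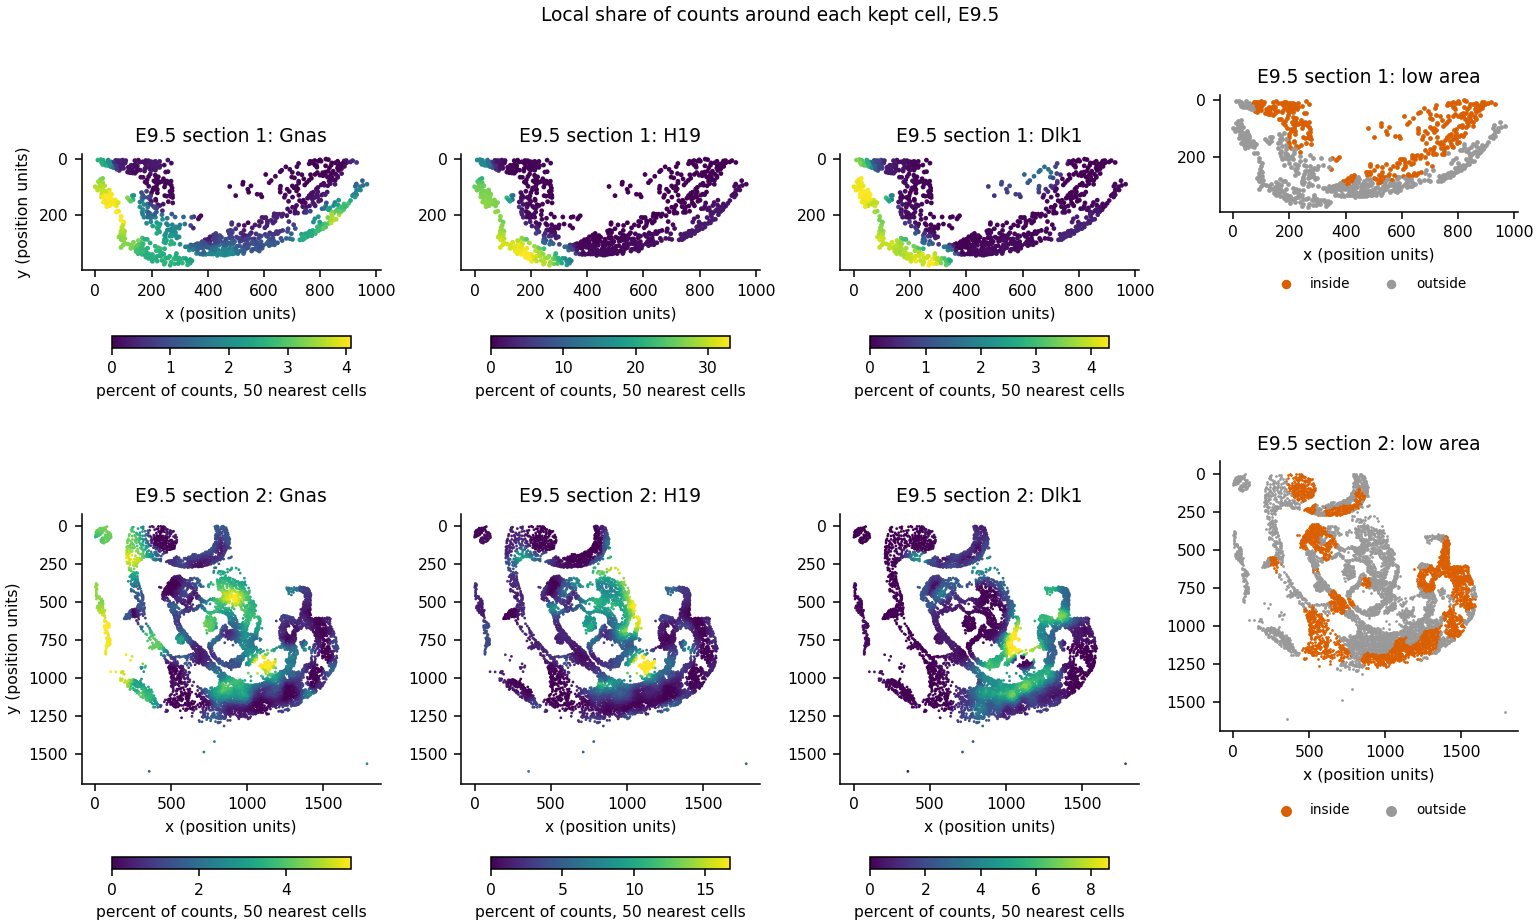
Share of counts (percent, colour, scale ending at the 99th percentile) of Gnas, H19 and Dlk1 over the 50 nearest kept cells of each cell, and the low-Gnas area (orange inside, grey outside), in E9.5 section 1 (top) and section 2 (bottom), 1 point per cell, axes in position units. In section 1 only 19 of the H19 counts lie inside the low-Gnas area, and Dlk1 stays high along part of the low-Gnas area of section 2.

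H19 was among the lowest of these 129 genes inside the areas, with a mean log2 ratio of -4.98 over the 2 sections. Counts under 3 inside were set to 3, which makes the values of Col1a2, Dkk2, BC028528 and Tubb2b bounds, so the order of H19 and Col1a2 is not settled. The rest of the 10 lowest were Col1a2 (-4.71), a collagen gene, Dkk2 (-3.75), a Wnt antagonist, Gnas itself (-3.60), BC028528 (-3.57), the hypoxia factor gene Epas1 (-3.31), the tubulin gene Tubb2b (-3.27), Cenpf (-3.20), a kinetochore gene, Gnai2 (-3.20) and Meis2 (-3.17), a homeobox gene. Of the genes counted, the 5 highest inside were Notch1 (2.07), Sfrp2 (1.94), a secreted Wnt modulator, Cldn5 (1.87), an endothelial tight junction gene, Pdgfrb (1.63) and Myo10 (1.495). In all 31 of the counted genes were at least 2-fold lower in both sections and 13 at least 2-fold higher. The minimum of counts outside keeps genes found mainly inside from entering, such as Higd1b (3.02) and Ndufa4l2 (2.70), named after their values were seen, so the 2 counts are not to be set against each other. Cells inside held fewer counts, with medians of 53 against 73 in section 1 and 109 against 145 in section 2. Blank codes together were at 0.563% against 0.402% and 0.362% against 0.240% of gene counts. The median DAPI signal per cell volume was 1.49 and 1.48 times as high inside, and the PolyT signal 0.806 and 0.929 times. Fields of view were mostly mixed, with 5 of 9 in section 1 and 23 of 40 in section 2 holding between 10% and 90% low-area cells. Whether depth, noise or stain bears on the lower H19 was not tested.

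Within cell clusters H19 was also lower where Gnas was low. Since low H19 in these areas was known beforehand, the counts of clusters below describe it and are no independent finding. In E9.5 section 2, 16 clusters held at least 20 cells on each side. H19 was lower inside in 16 of 16, with a median ratio of 0.382 and 13 of 16 at or below 0.5. Some rest on few counts: H19 had 2 counts inside and 18 outside in cluster 2, 4 and 3 in cluster 6, and 3 and 9 in cluster 14. Its share inside these clusters lay under that of the section's highest Blank code (0.0380%). Gnas itself, which chose the areas, gave a median of 0.330. The median ratio was 0.907 for Dlk1, 0.870 for Cdkn1c and 1.08 for Asb4, with 10, 9 and 6 of 16 clusters lower inside. In section 1, H19 was lower inside in 3 of 3 clusters, and its median ratio was 0.133. Its counts inside and outside were 0 and 30 in cluster 1, 1 and 4 in cluster 2, and 14 and 771 in cluster 3. The median ratio is that of cluster 2, so it rests on very few counts. Of 160 genes with a count outside in every one of the 16 clusters of section 2, 5 were lower inside in all 16. Besides Gnas and H19 these were Meis2 (median ratio 0.293), Gnai2 (0.332) and Ranbp1 (0.309), a regulator of the Ran GTPase; Ranbp1 is named after its values were seen. The median over the 160 genes was 1.09. None of the other imprinted genes was among these 5. Genes with no count outside in some cluster were left out of the 160. Among those, Apod, Sgk1, Gpihbp1, Npl and Socs3 were scored as lower inside in all 16, with 0 counts outside set to 1. A cluster with no count on either side is scored as lower by this rule, so their 16 of 16 need not be measured differences. Over all cells of section 2, Apod had 2 counts inside and 24 outside, Gpihbp1 6 and 49, and Npl 11 and 251. All 5 genes are named after their values were seen.

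**Figure D5:**
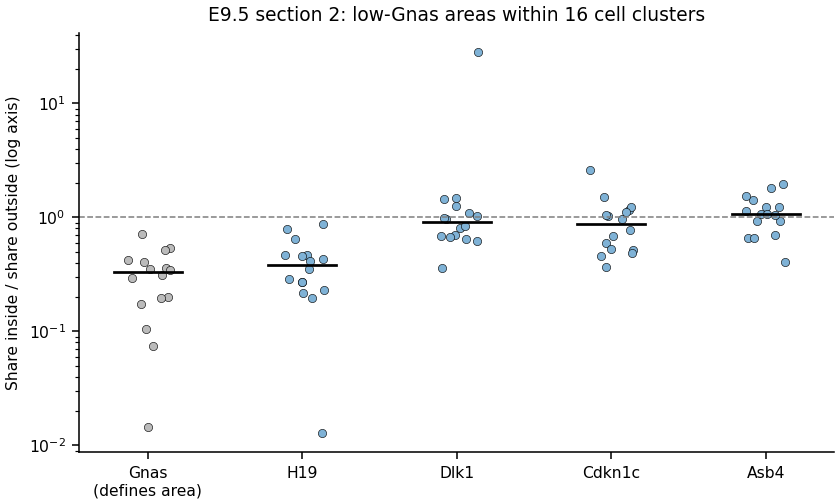
Share of counts inside over outside the low-Gnas areas (log axis) for each gene in each of 16 cell clusters of E9.5 section 2 with at least 20 cells on both sides; bars are medians and the dashed line marks equal shares. All 16 points of H19 lie below 1 (median 0.382), those of clusters 2, 6 and 14 on few counts, while the points of Asb4 lie around it (median 1.08).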

How the data were processed

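The authors deposited, per section, whole-number counts of 296 genes and 19 Blank codes for each segmented cell, with cell volume, position, field of view and summed DAPI and PolyT signal. Per the labels, hybridisation, imaging, segmentation and decoding were done on the Vizgen MERSCOPE platform; no settings are recorded there. The deposited signal values enter only as medians per cell volume. Scanpy and Seurat are named in the submitters' processing notes, without a role. Cells with at least 10 gene counts were kept (89.2% at E15.5, 77.1% and 92.7% at E9.5), with medians of 84, 61 and 128 counts.

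The members, gene lists, markers and area rule were chosen with earlier results of these data known. Clusters were formed at each stage without the 5 members (30 principal components, 15 neighbours, Leiden resolution of 1 with leidenalg 0.10.2). A class name needed at least 3 markers, and no less than 0.5 of those in the panel, raised 2-fold on at least 20 counts, with no rival class (a rule chosen after looking at the clusters). The leading genes of some clusters are not reported here. No doublet caller was run, since cells come from segmentation. Sums per section were tested with edgeR 4.0.16 (quasi-likelihood, TMM), with DESeq2 1.42.0 as an alternative; class tests had the section as a block. The planned class test on clusters could not be run, because no class had 20 cells in each section; marker gates and the endothelial-like comparison without E9.5 section 1 replaced it. P-values of the stage test measure only the spread between sections. Those of the class tests measure how the class difference varies from section to section. The fits draw both spreads toward those of the other genes. Named genes were the members, the 3 genes most like each over squares, the 3 highest and 3 lowest clusters of each, the 10 lowest and 5 highest genes in low-Gnas areas, and called genes of fixed lists. On counts simulated with the same spread for every gene, the stage test was checked for known fold changes. That check does not show how the test behaves for genes with a wider spread, such as Cdkn1c. Shares of counts carry counting error, which at these depths is small beside the differences between sections.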

Additional observations from a re-analysis of the deposited data

Results flagged for a closer look

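H19 and Asb4 ran in opposite directions at the 2 stages when cells inside low-Gnas areas were set against those outside; the difference between the stages was not tested. H19 was 1.18 times as high inside as outside at E15.5, against 0.00565 in E9.5 section 1 and 0.177 in E9.5 section 2. Asb4 was at 0.378 at E15.5, against 2.28 in E9.5 section 1 and 1.05 in section 2. By cells with a count, H19 at E15.5 was present in 67.3% inside and 74.6% outside. Cells inside were shallower there, with a median of 39 counts against 85. The opposite directions also depend on the setting. Per cell volume, H19 was at 0.389 at E15.5, lower inside as at E9.5 (0.00829 in section 1 and 0.170 in section 2), in areas that held 25.8% of E15.5 cells. Asb4 in E9.5 section 2 was at 0.956 with 100 nearest cells and 0.581 per cell volume. The areas of the first values held 2.20% of kept cells at E15.5 and 43.3% and 44.0% in the E9.5 sections.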

How the results depend on the processing

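No paired analysis was possible because the replicate numbers of the sections were given in accession order and pair nothing, and E15.5 has a single section. Under the alternatives run, 131 of the values that answer a comparison kept their direction and side of the threshold, or stayed within the stated spread. Beside them 23 moved, 10 weakened, 5 reversed and 3 grew stronger. Of the other values checked, 32 moved and 18 stayed the same. Exceptions follow, and their cause was not tested except where fewer cells or sections were used. The Cdkn1c stage difference lost its call with DESeq2 (log2 2.00), counts per cell volume (1.65) and E9.5 low-Gnas areas left out (1.78). That of Gnas lost its call with upper-quartile factors (1.78), library sizes without the members (1.62), volume (1.48), genes above the highest Blank code (1.46), at least 20 counts per cell (1.47), the mean Blank code subtracted (1.48) and low areas left out (0.99). Gnas itself chose the low areas, which were left out at E9.5 only. The median stage difference of all genes was 0.12 with upper-quartile factors, against -0.15 with TMM. Dlk1 reversed without low areas, to -0.0578. Genes called by stage numbered 44, against 11 per volume, 92 by DESeq2, 18 without low areas and 27 with upper-quartile factors. DESeq2 called Dlk1 in mesenchyme (1.85), Gnas in neuronal cells (1.08) and the neuronal interaction of H19 (-2.72). Without low areas Asb4 in mural cells turned to -0.0139, and H19 and Cdkn1c in neuronal cells to -0.28 and -0.0125. With a marker gate Cdkn1c in endothelial cells turned to -0.12.

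Leaving out each section in turn gave stage differences of 0.54 to 1.89 for H19 and 1.35 to 3.75 for Cdkn1c. It gave -0.0814 to 0.27 for Asb4 in mural cells, -0.22 to 0.95, -0.48 to 1.14 and -0.36 to 0.63 for Dlk1, H19 and Cdkn1c in neuronal cells, and interactions of -0.60 to 0.38 (mural, Dlk1) and -0.0529 to 0.47 (mesenchyme, Cdkn1c). The highest cluster stayed the same for 3 of 5 members per cell and 3 per volume at E15.5; in E9.5 section 2 it did for 3 at a Leiden resolution of 0.5, 1 per cell and 2 per volume. With squares of 100 units 5 members, against 3, had a 90th percentile over 10 times the 10th in that section. Genes 2-fold higher inside low areas numbered 5 per volume, against 13. The H19 ratio inside over outside was 0.0156 (20 nearest cells), 0.00891 (100 nearest) and 0.0148 (0.5 of the 90th percentile) in section 1, and 0.135, 0.223 and 0.292 in section 2, where 0.1 of the percentile gave 0.0732 and volume 0.170. The mitotic ratio at E15.5 was 0.807 and 0.798 with at least 1 and 3 Cdkn1c counts and 0.926 thinned to 100, and 0.919 with at least 1 in E9.5 section 2.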
